A study of Mus musculus with 2 samples.

Results

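Mir375, Mir205 and Mir203 are 3 microRNA genes known from neuroendocrine cells and from basal and stratified epithelium, and they were taken by name from the 1973 microRNA genes counted in mouse embryonic lung. All 3 were in the table and all 3 were detected, which here means at least 10 counts in both libraries. Small RNA of total RNA was sequenced from whole lungs of healthy B6NCrl mouse embryos at embryonic day 15.5. The 2 libraries form 1 group, embryonic lung, and differ in the pool behind them, which was 78 embryos for replicate 1 and 62 embryos for replicate 2, with both sexes in each. The group carries no treatment or engineered allele. The labels call the libraries biological replicates 1 and 2 and give both pools 1 donor identifier. The spread between the libraries covers pooling, dissection and library preparation, and any differences between the pooled embryos. With 1 group the data give levels within the lung and no comparison of conditions.

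A microRNA is cut from a hairpin precursor into a short single-stranded product, and the bases near its 5′ end, the seed, pair with target messages and lower their output. miR-375 is best known from endocrine cells, among them pancreatic islets and the neuroendocrine cells that sit singly or in clusters in the airway epithelium. miR-205 is known from basal cells of stratified and pseudostratified epithelia, and miR-203 from keratinocytes, where it restrains the basal cell factor p63 as cells leave the basal layer. These cell types are background from other work. The tables hold microRNA genes alone, so protein-coding markers of neuroendocrine or basal cells were not measured in these libraries.

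The products of the 3 genes that have a RefSeq mature sequence are shown first, with their seeds. Mature sequences are from RefSeq on GRCm38.p6, the assembly family that mm10 denotes, written 5′ to 3′ with the seed, bases 2 to 8, in capitals. The tables count a whole precursor, so the counts below are not divided between the arms. miR-375-3p, the other product of Mir375, had no entry among these sequences. It is named only, and its seed was not searched.
miR-375-5p: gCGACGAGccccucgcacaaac
miR-205-5p: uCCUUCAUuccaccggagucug
miR-205-3p: gAUUUCAGuggagugaagcuca
miR-203-5p: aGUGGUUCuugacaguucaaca
miR-203-3p: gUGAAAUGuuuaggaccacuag
No 2 of these 5 products had the same seed. Among the 1738 mature products in the RefSeq table, none from another gene carried any of the 5 seeds. By these 5 products the genes were not grouped by seed.

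The whole hairpins show how the products lie in their precursors, with the listed mature products in capitals.
Mir375 hairpin: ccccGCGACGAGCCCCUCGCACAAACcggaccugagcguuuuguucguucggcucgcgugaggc
Mir205 hairpin: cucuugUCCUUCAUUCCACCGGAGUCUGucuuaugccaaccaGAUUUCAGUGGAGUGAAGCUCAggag
Mir203 hairpin: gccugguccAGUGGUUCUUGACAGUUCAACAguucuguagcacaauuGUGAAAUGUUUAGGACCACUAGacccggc
The Mir375 precursor was rich in G and C, at 67.2% of its 64 bases, and 93.9% of the 1894 precursors with an annotated sequence had a lower share. Mir205, at 50% of 68 bases, and Mir203, at 48.7% of 76 bases, lay near the median precursor of 51%. The longest run of bases that Mir375 shared with any of the 1893 other precursors on the same strand was 9 bases, against 14 bases for Mir205 and 11 bases for Mir203. Runs of that length are shorter than the mature products. Reads that mapped to several places, 31.4% and 30.6% of the reads of replicates 1 and 2, were summed apart from the genes in the deposited tables. Matches of the 3 genes elsewhere in the genome were not searched here.

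The genes lie at separate loci of the mm10 assembly. Mir375 (ENSMUSG00000065616) lies on chromosome 1 at 74900658 to 74900721, minus strand, in no annotated gene, 1349 bp from Cfap65 and 7514 bp from Cryba2. Mir205 (ENSMUSG00000065533) lies on the same chromosome at 193507463 to 193507530, minus strand, inside an exon of the long noncoding gene 4631405K08Rik, which RefSeq calls Mir205hg. Mir203 (ENSMUSG00000065574) lies on chromosome 12 at 112130880 to 112130955 on the plus strand, with no annotated host, 3320 bp from Aspg and 15252 bp from Kif26a. No other microRNA gene of the GENCODE annotation lay within 10000 bp of any of the 3, so none of them is a member of a polycistron by that measure. The deposited tables carry an earlier version of the Mir375 identifier than the annotation used for positions, and the interval the authors counted for it may differ.

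Mir375 was the highest of the 3. It had 22629 counts in replicate 1 and 31995 counts in replicate 2, that is 4226 and 4930 counts per 1000000 counts over all genes (CPM), with a mean of 4578 ± 498 CPM (SD, n = 2). It was the gene of rank 42 in replicate 1 and rank 37 in replicate 2 among the 1973 genes. The depth behind these values was 5354530 gene counts in replicate 1 and 6489390 in replicate 2, so the 95% exact binomial interval of Mir375 ran from 4171 to 4281 CPM in replicate 1 and from 4877 to 4985 CPM in replicate 2. The intervals did not overlap, and like all intervals here they cover counting error alone, because the reads carry no recorded molecular identifiers.

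Mir205 followed, with 9629 and 11115 counts, or 1798 and 1713 CPM, and a mean of 1756 ± 60.5 CPM (SD, n = 2). Its rank was 71 in replicate 1 and 73 in replicate 2. Of the 3 genes it had the closest pair of libraries and was the one that stood lower in replicate 2. Mir203 had 8108 and 11324 counts, or 1514 and 1745 CPM, with a mean of 1630 ± 163 CPM (SD, n = 2). Its rank was 76 in replicate 1 and 71 in replicate 2, so it stood below Mir205 in the first library and above it in the second. A count of 0 allows up to 3 counts, worth 0.560 CPM in replicate 1 and 0.462 CPM in replicate 2, and all 3 genes lay far above that limit.

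In whole lung, fewer cells of a type and less of a microRNA per cell cannot be told apart, so these are levels of the tissue. Together the 3 genes took 0.754% of the gene counts in replicate 1 and 0.839% in replicate 2. Mir375 made up 57.4% ± 1.92 of the reads of the 3, Mir205 22.1% ± 2.43 and Mir203 20.4% ± 0.507 (SD, n = 2 for each).

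Within each library Mir375 exceeded both other genes. Its counts were 2.35-fold those of Mir205 in replicate 1 and 2.88-fold in replicate 2, a mean log2 ratio of 1.38 ± 0.207 (SD, n = 2). Against Mir203 the folds were 2.79 and 2.83, a mean log2 ratio of 1.49 ± 0.0125. Both differences were larger than the spread between the libraries. Mir205 over Mir203 gave a log2 ratio of 0.25 in replicate 1 and -0.03 in replicate 2, a mean of 0.11 ± 0.194, so these neighbours in the order did not differ beyond their spread. Counts are per precursor and were not divided by length, and read lengths were not analysed here. Divided by precursor length, a setting chosen after seeing the data, the log2 ratios were 1.47, 1.74 and 0.27 in the same order. The last, for Mir205 over Mir203, was then larger than its SD of 0.194. A bias of library preparation for particular sequences, such as the G and C rich Mir375, would be shared by both libraries and would not show in the SD. Its part in the order was not tested.

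**Figure D1:**
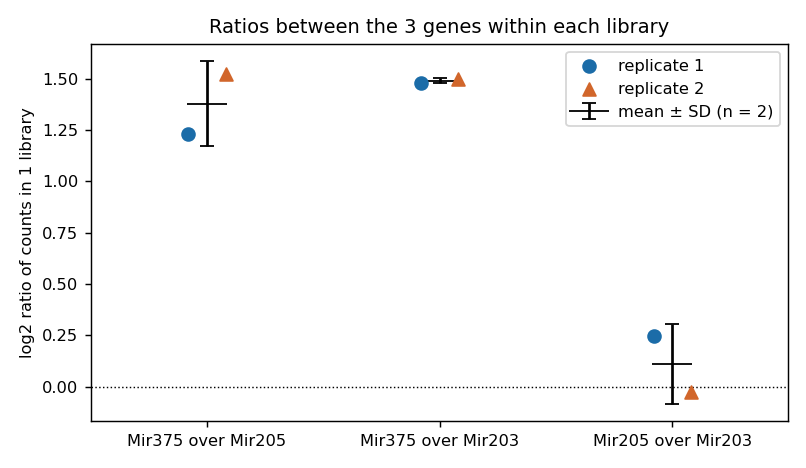
Log2 ratio of the counts of each pair of genes (horizontal axis) within 1 library (vertical axis), with replicate 1 as circles, replicate 2 as triangles, and the mean with its SD as black bars (n = 2). The ratio of Mir375 over Mir203 was 1.48 and 1.498 in the libraries, while Mir205 over Mir203 fell on both sides of the dotted line at equal counts.

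The log2 levels were compared by an exact 2-sided permutation test that did not use the pairing of the genes within libraries. This exact permutation test gave p = 0.333 for Mir375 against Mir205 and for Mir375 against Mir203, and p = 0.667 for Mir205 against Mir203. After Benjamini-Hochberg adjustment over the 3 pairs these exact permutation values were 0.50, 0.50 and 0.667. The smallest p that 2 values against 2 allow is 0.333, so no pair could pass 0.05.

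The libraries differed in the balance of the 3 genes. Mir375 was 1.17-fold higher in replicate 2 (95% exact binomial interval 1.15 to 1.19) and Mir203 was 1.15-fold higher (1.12 to 1.19). Mir205 stood at 0.952 of its replicate 1 level (0.927 to 0.979). Each of these intervals excludes equal shares of the gene counts, so the shares differed by more than counting error for all 3 genes. Per read of the whole table, the log2 ratio of the libraries for Mir205 was -0.039, against -0.070 per gene count. No interval was computed for that setting, so a difference of Mir205 beyond counting error is stated for shares of the gene counts only. The ratio of Mir375 to Mir203 did not differ between them beyond counting error, at 1.01-fold in replicate 2 over replicate 1 (interval 0.979 to 1.05). The ratio of Mir375 to Mir205 changed 1.22-fold (1.19 to 1.26) and that of Mir205 to Mir203 0.826-fold (0.795 to 0.860). The libraries compare 2 pools of 1 kind, and each was sequenced once.

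None of the 3 genes differed between the libraries by more than 0.32 in log2, the difference taken here as a call. Of the 357 detected genes, 73 did, or 20.4%. The called genes lay mostly at low levels. Among the 95 detected genes with a mean of at least 1000 CPM, which include the 3, the median difference was 1.06-fold and 1 gene was called. Within those 95 genes, 10 had a larger difference than Mir375, 12 a larger one than Mir203 and 50 a larger one than Mir205. Mir375 and Mir203 thus stood among the less even genes of their level, and Mir205 near the middle.

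**Figure D2:**
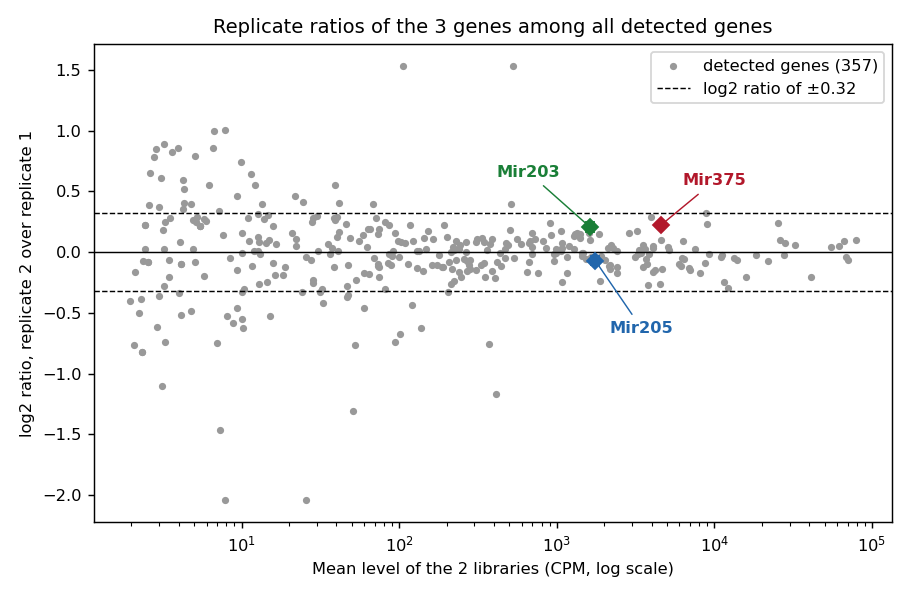
Log2 ratio of replicate 2 over replicate 1 (vertical axis) against the mean level in CPM (horizontal axis, log scale) for the 357 detected genes (grey), with dashed lines at a log2 ratio of 0.32 in either direction. Diamonds mark Mir375 at 0.22, Mir203 at 0.20 and Mir205 at -0.07, with 95% exact binomial intervals about the size of the symbols.

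Reads opposite to the annotated strand separated Mir203 from the other members. Mir375 and Mir205 had 0 reads on the opposite strand in both libraries, beside 22629 and 31995 reads of Mir375 and 9629 and 11115 reads of Mir205 on their own strand. For Mir203 there were 45 opposite reads in the first library and 52 in the second, and 99.4% (95% exact binomial interval 99.3 to 99.6) and 99.5% (99.4 to 99.7) of its reads lay on its own strand. Of the 357 detected genes, 17 had an opposite read in both libraries and 7 had at least 10 there. RefSeq places a microRNA gene, Gm51289, also called Mir203b, opposite Mir203 at 112130887 to 112130946 of chromosome 12, and the deposited tables hold no row for it. Its products, shown because they lie across from those of Mir203, have seeds of their own, in capitals.
miR-203b-5p: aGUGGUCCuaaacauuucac
miR-203b-3p: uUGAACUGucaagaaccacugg
All 20 bases of miR-203b-5p are the reverse complement of a run within miR-203-3p, and miR-203b-3p and miR-203-5p share a complementary run of 20 bases. The strand of a read is what tells the products of the 2 genes apart. From which product the 45 and 52 reads came was not tested, since the tables give counts per gene.

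The 3 genes took the lowest mean share of the 4 epithelial lists, 0.796% ± 0.0601 (SD, n = 2), close to those of 2 of the others. These shares are sums over lists of unequal size and were not divided by the number of genes. Beside the 3 genes, the miR-200 and multiciliated lists hold 5 genes each and the Mir183 and Mir7 list holds 6. The Mir183 cluster and Mir7 genes together took 0.883% in replicate 1 and 0.902% in replicate 2. The 5 genes of the miR-200 family, which keep epithelial cells from taking on a mesenchymal state, took 3.19% and 3.15% of the gene counts, 3.99-fold more than the 3 genes (log2 ratio of the 3 genes over the family, -1.995 ± 0.124, SD, n = 2). The multiciliated list, of Mir449 and Mir34 genes that act as airway cells build cilia, took 0.920% and 0.828%. Most of that sum was Mir449a, at 8571 and 7622 CPM. Mir34c stood at 576 and 602 CPM, Mir34b at 27.1 and 21.6 CPM and Mir449c at 14.4 and 15.4 CPM. The ratio of the 3 genes to the multiciliated list changed sides between the libraries. The 3 genes were lower in replicate 1 (log2 -0.29) and higher in replicate 2 (log2 0.02), a mean of -0.13 ± 0.217. The exact 2-sided permutation test gave p = 0.333 for the miR-200 family and p = 0.667 for the multiciliated list, and 0.667 for both after adjustment over the 2 lists, again with 0.333 as the smallest possible.

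In the order of 19 such genes Mir375 stood at place 5, between Mir200b and Mir182. Mir200b reached 5025 and 5189 CPM, above both libraries of Mir375 but by a difference of means, 529 CPM, close to the SD of Mir375. Mir182, of the Mir183 cluster known from sensory and neuroendocrine cells, reached 4062 and 4151 CPM, and its mean lay within 1 SD of that of Mir375, although the libraries of the pair did not overlap. Mir183 stood next at 3426 and 3405 CPM. Mir205 and Mir203 held places 8 and 9, 1.95-fold below Mir183 in the case of Mir205. Mir141 of the miR-200 family followed Mir203 at 1346 and 1459 CPM, with no overlap of the libraries and a difference of means of 227 CPM beside an SD of 163 CPM for Mir203.

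**Figure D3:**
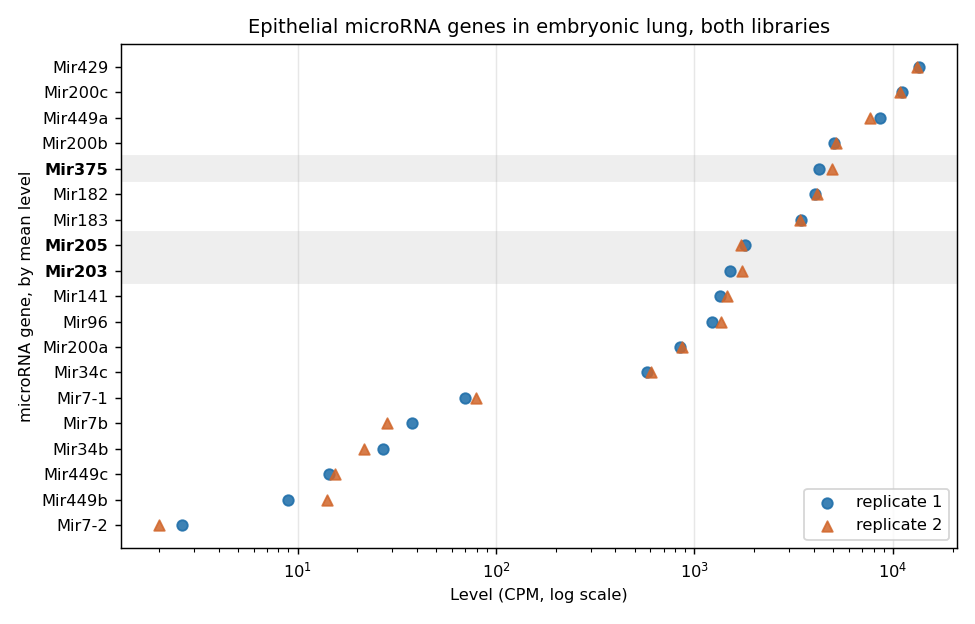
Level in CPM (horizontal axis, log scale) of 19 microRNA genes of epithelial lists (vertical axis, by mean), with replicate 1 as circles and replicate 2 as triangles. The 3 genes described here are shaded: Mir375 at 4226 and 4930 CPM lies between Mir200b and Mir182, and the points of Mir205 and Mir203 overlap in range.

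Other microRNAs of neuroendocrine and sensory cells did not all stand at the level of Mir375. The 3 genes of the Mir183 cluster were between 1232 and 4151 CPM in the 2 libraries. Of the Mir7 genes, known from endocrine and neural cells, Mir7-1 reached 74.8 ± 6.94 CPM, Mir7b 33.0 ± 6.74 CPM and Mir7-2 2.31 ± 0.432 CPM (SD, n = 2). Numbered copies such as Mir7-1 and Mir7-2 can be undercounted, since reads that fit several copies were summed apart from the genes.

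The genes closest to each member in level over the 2 libraries were named by level alone. Nearest to Mir375 were Mir181c, at 4406 and 4715 CPM, and Mir182, with distances of 0.09 and 0.25 in log2 CPM. Nearest to Mir205 were Mir425, at 1665 and 1622 CPM, and Mir181a-1, at 1916 and 1877 CPM, with distances of 0.14 and 0.16, and Mir181a-1 has a numbered copy and may be undercounted. Mir203 lay closest to Mir107, at 1503 and 1681 CPM, and Mir381, at 1562 and 1675 CPM, with distances of 0.06 and 0.07. The likeness rests on 2 libraries of 1 tissue and describes level only.

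miR-375 is also abundant in pancreatic islets, and other tissues can be carried along with dissected lung. Lists of some other tissues are therefore given beside the 3 genes. None of them is a list of islets or of stratified epithelium, so carry-over of those tissues cannot be read from them. The exocrine pancreas list was near its floor: Mir217 had 8 and 10 counts, Mir216b 3 and 5 and Mir216a 2 and 0, with 0 of 3 genes detected and a summed share of 0.000243% and 0.000231%. The neural list had 3 of its 8 tabulated genes detected and took 0.0327% and 0.0192%, with Mir137 at 166 and 108 CPM, while Mir9-3 had 9 and 18 counts and Mir9-2 and the 3 Mir124a copies were at 0. Those are numbered copies too, and a count of 0 there does not show absence. The liver and gut list had 4 of 5 genes detected and took 0.0577% and 0.0385%, led by the liver microRNA Mir122 at 470 and 278 CPM. Its detected genes did not all go the way of that sum: Mir192 stood at 56.2 and 62.1 CPM, Mir194-2 at 34.7 and 36.4 CPM and Mir215 at 12.3 and 8.01 CPM. The neural and the liver and gut lists were lower in replicate 2 as sums.

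Lists of muscle and blood are given in the same way. The striated muscle list had 4 of 4 genes detected and took 0.0928% and 0.124%, with the skeletal muscle microRNA Mir206 at 54.2 and 156 CPM, Mir208b at 269 and 780 CPM, Mir499 at 31.6 and 46.4 CPM, and the cardiac microRNA Mir208a the other way, at 573 and 255 CPM. The erythroid list had 2 of 2 detected and took 0.0684% and 0.0833%, led by Mir451a at 445 and 585 CPM. The leukocyte list had 2 of 2 detected at 0.0726% and 0.0689%. The muscle and erythroid lists were higher in replicate 2 as sums, and the leukocyte list was lower. The 3 genes exceeded the muscle list 8.13-fold and 6.78-fold, and the erythroid list 11.0-fold and 10.1-fold, in replicates 1 and 2. The part of other tissues in the levels of Mir375, Mir205 and Mir203 was not tested.

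**Figure D4:**
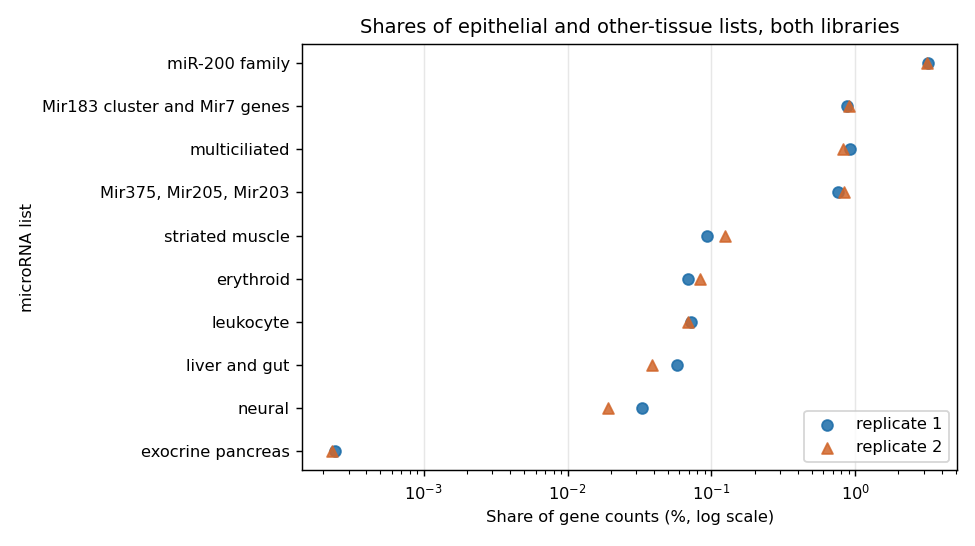
Share of all gene counts in percent (horizontal axis, log scale) for 10 lists of microRNA genes (vertical axis), with replicate 1 as circles and replicate 2 as triangles. The 3 genes, at 0.754% and 0.839%, lie beside the multiciliated list and the Mir183 cluster with the Mir7 genes. They lie above each list of another tissue shown, none of which is of islets or stratified epithelium.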

How the data were processed

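Small RNA of 2 lung pools was measured as 1 library each. The authors deposited raw read counts per microRNA gene, made on mm10 with annotation release M4 per the library readme. Which aligner and counter made them is not given in the sources used here. The tables have 3 columns of counts (either strand, annotated strand, opposite strand, as judged from their totals) each, for 1973 genes and 4 summary lines, which were left out of totals. The summary lines of unmapped, multiply mapped and unassigned reads held 16.8%, 31.4% and 4.78% of replicate 1 and 17.2%, 30.6% and 4.22% of replicate 2. The annotated-strand column gave CPM over all gene rows.

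GENCODE M21 on GRCm38 gave names and positions, with 1894 identifiers matched without version suffix. Sequences came from RefSeq on GRCm38.p6. The members and lists were chosen with earlier results of these data known. Genes named were the members, up to 4 of the highest detected genes of each list, the 2 detected genes nearest in log2 CPM to each member, and microRNA genes overlapping a member; undetected list genes were also named after their values were seen. Means and SDs are over the 2 libraries. Nothing in the labels says that the pools are separate litters, so the tests cover these libraries alone. Pairs of genes and of lists were compared by exact permutation that did not use the pairing by library. Ratios of libraries were given exact binomial intervals. Ratios of 2 genes were given 95% intervals of an odds ratio by normal approximation. The ratio of libraries and its interval were checked on simulated counts that varied by counting error alone. The other intervals were not checked in that way. Alternatives used edgeR 4.0.16 (TMM) and DESeq2 1.42.0 (size factors) in R 4.3.3, the total without the most abundant gene, either-strand counts, other minimum counts and each library alone. Other values were computed in Python 3.11.15 with scipy 1.17.1, pandas 2.3.3 and numpy 2.4.6, and plots drawn with matplotlib 3.10.9.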

Additional observations from a re-analysis of the deposited data

Results flagged for a closer look

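Reads on the strand opposite Mir203, a column that the levels do not use, came to 45 in replicate 1 and 52 in replicate 2, above the 3 counts that a count of 0 allows, while Mir375 and Mir205 had 0 there. Relative to the gene counts of each library this was 8.40 and 8.01 CPM.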

How the results depend on the processing

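Of 60 alternatives to 13 results, 50 were counted as unchanged, 8 as moved and 2 as changed in direction. Levels, shares and library ratios were judged by their spread or interval, and ratios of genes or lists by direction alone. Mir375 over Mir203 divided by precursor length was among the 50, at 1.74 against 1.49, a move beyond its SD of 0.0125. Per read of the whole table, unmapped and multiply mapped reads included, levels were 2174 (Mir375), 833 (Mir205) and 774 (Mir203) per 1000000 reads, and the log2 ratio of the libraries for Mir375 was 0.25. Without the most abundant gene in the total, Mir205 stood at 1907 CPM and the 3 genes at 0.865% of the counts. With a minimum of 100 counts, 23 of 254 genes differed by over 0.32 in log2 between the libraries, and with 1 count 237 of 590 did; the fewer or additional low genes tested make that difference, and none of the 3 members was among them under any setting run. With 1 library left out, Mir205 over Mir203 ranged from -0.027 to 0.25 and the 3 genes over the multiciliated list from -0.29 to 0.019 in log2, so each changed direction without replicate 1. Normalising with TMM or DESeq2 size factors moved no member's value beyond its spread or interval. The number of libraries limits every test here, and depth limits none of the 3 levels.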
